A study of Mus musculus with 10 samples.

Results

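The subject here is a group of 8 mouse genes that encode the receptor chains for the cytokines IL-6, IL-23 and IL-27 and the Janus kinases bound to them: Il23r, Il12rb1, Il6ra, Il6st, Il27ra, Jak1, Jak2 and Tyk2. They were picked by name for what their proteins do, and all 8 of 8 were measured, among 22180 genes on the array. Each was read by 1 probe set. Messenger RNA was measured on 10 Affymetrix arrays of cultured mouse T helper cells, 1 array per sample. The groups were Th17 (4 arrays), Th2 (3 arrays) and the control Th0 (3 arrays).

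All cultures began with CD4+ spleen lymphocytes of female wild-type (WT) Balb/c mice aged 10 to 14 weeks and received anti-CD3 at 4 µg/ml and anti-CD28 at 30 ng/ml. Th17 cultures also received IL-6 at 20 ng/ml, TGFβ at 5 ng/ml, IL-23 at 10 ng/ml and anti-IFNγ at 10 µg/ml. Th2 cultures received IL-4 at 100 ng/ml and the same dose of anti-IFNγ. Th0 cultures had neither cytokines nor anti-IFNγ, so the comparisons with Th0 also differ by that antibody. The labels list IL-6 and IL-23 among the additions, but not IL-27 or IL-12. Medium was exchanged after 72 h, and no source used here gives the time of harvest. Replicates are called biological in the titles, without a statement that each came from another animal, so a p-value reflects the spread among the arrays and nothing wider.

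Cytokine receptors of this family have no kinase of their own. IL-6 binds IL-6Rα (Il6ra) and then gp130 (Il6st), which signals. IL-23 binds IL-23R (Il23r) paired with IL-12Rβ1 (Il12rb1), a chain that the IL-12 receptor also uses. IL-27 binds WSX-1 (Il27ra) paired with gp130. JAK1, JAK2 and TYK2 sit on the inner part of these chains and phosphorylate STAT factors, mainly STAT3 for IL-6 and IL-23. In T helper cells IL-6 with TGFβ starts Th17 differentiation, IL-23 sustains it, and IL-27 restrains it.

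Promoter windows of 3 members are shown because they belong to the member that differed most between groups and to 2 broadly expressed members, a shared chain and a kinase. The sequences are RefSeq's for assembly GRCm38.p6, 5′ to 3′ on the gene's strand, from 250 bases before to 50 bases after the gene's start, and the table held 6 of the 8 members. Capitals mark matches, on either strand, to the motifs searched.
Il23r, chr6:67491806-67492105, minus strand: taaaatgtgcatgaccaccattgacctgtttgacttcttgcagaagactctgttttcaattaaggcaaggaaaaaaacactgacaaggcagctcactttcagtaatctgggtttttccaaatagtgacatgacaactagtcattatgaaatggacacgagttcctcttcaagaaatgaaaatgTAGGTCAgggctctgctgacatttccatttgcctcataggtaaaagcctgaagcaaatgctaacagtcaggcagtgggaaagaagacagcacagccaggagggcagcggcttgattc
Il6st, chr13:112463820-112464119, plus strand: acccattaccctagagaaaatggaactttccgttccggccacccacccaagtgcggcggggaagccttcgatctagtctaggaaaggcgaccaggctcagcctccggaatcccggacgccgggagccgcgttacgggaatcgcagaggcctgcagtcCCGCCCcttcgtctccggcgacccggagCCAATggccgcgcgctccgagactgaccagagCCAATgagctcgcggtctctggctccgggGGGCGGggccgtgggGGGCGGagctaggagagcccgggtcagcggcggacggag
Jak2, chr19:29251553-29251852, plus strand: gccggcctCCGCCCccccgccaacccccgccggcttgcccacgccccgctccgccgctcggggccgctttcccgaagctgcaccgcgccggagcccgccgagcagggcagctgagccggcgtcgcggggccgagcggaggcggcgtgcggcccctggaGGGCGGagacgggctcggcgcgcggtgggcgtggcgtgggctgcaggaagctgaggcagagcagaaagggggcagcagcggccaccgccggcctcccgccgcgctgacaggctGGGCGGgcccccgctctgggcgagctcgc
The Il23r window had a GC content of 43%, and 16.5% of all promoters in the table were lower. Its 1 match was TAGGTCA, a half-site of the kind that ROR factors bind, at position -67 from the start. Of all 32851 promoters 2.61% held that motif. The Il6st window had 68.3% GC with 3 GC boxes (GGGCGG) and 2 CCAAT boxes, and the Jak2 window 81% GC with 3 GC boxes. GC boxes were found in 35.7% of all promoters and CCAAT boxes in 37.4%. The STAT motif TTCNNNGAA, held by 8.3% of all promoters, and the AP-1 motif TGANTCA, held by 7.81%, had no match in any of the 6 windows. No matches of different motifs overlapped. A match is a description of the letters only.

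T cell markers were high on all 10 arrays, with Cd3e at 9.36 to 10.44 and Cd4 at 7.09 to 8.76 (log2 values here and below, except folds and p-values). On the first principal component over all genes, which held 35.8% of the variance, Th17 replicate 4, Th2 replicate 2 and Th2 replicate 3 stood apart from the other 7 arrays. The mean of 10 measured markers of basophils and mast cells was highest on Th0 replicate 1, Th17 replicate 3 and Th17 replicate 2. It was 6.85, 5.41 and 5.26 there, against 3.26 to 4.06 on the other arrays. The protease gene Cpa3, Mcpt8, Fcer1a, Ms4a2, Gata2 and Cd200r3 each had their highest 3 values on those arrays. Kit, Prss34, Hdc and Mcpt4 did not, and Kit was highest on Th17 replicate 1, at 5.07. The 3 arrays with the highest mean are called the basophil-high arrays below. Leaving them out keeps Th17 replicates 1 and 4 and Th0 replicates 2 and 3. Th17 replicate 4, an array apart, then weighs more in the Th17 mean. The 2 changes cannot be told apart in those fits. Myeloid and neutrophil markers averaged 4.14 on Th17 replicate 1 and 3.14 to 3.75 elsewhere. The 3 measured genes of erythroid cells and platelets averaged 7.20 on Th0 replicate 1, 3.25 to 3.71 on the 3 arrays apart and 4.48 to 5.99 on the others. B cell markers averaged 3.47 to 4.54, and of these Ighm ran from 4.71 on Th17 replicate 4 to 10.41 on Th17 replicate 1. The mean of 11 cell cycle genes ran from 6.81 to 7.82 on the Th17 arrays, 6.78 to 8.40 on the Th2 arrays and 7.88 to 8.27 on the Th0 arrays. In no comparison was any of the 11 called, where at most 0.104% of all genes were. All 11 were lower in Th17 than in Th0, with a median of -0.87. There 7 of 11 did not overlap, against 7.57% of all genes. The median in Th2 against Th0 was -0.78. Of 9 markers of CD8 and NK cells 1 was called, Klrd1, an NK cell receptor gene, with a mean of 6.43 in Th17, against 3.83 in Th2 and 4.14 in Th0. It was called in Th17 against Th0 and against Th2, where 0.104% and 0.0766% of all genes were called. The list did not move as 1, with 5 of 9 above 0 and a median of 0.09 in Th17 against Th0. Against Th2 these were 7 of 9 and 0.74. The part of these markers in the results was not tested. Values without the 3 apart or the 3 basophil-high arrays are given beside many differences that those arrays move. In these bulk samples, fewer cells that express a gene and less of its RNA per cell cannot be told apart.

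Il23r, the chain that makes a receptor specific for IL-23, was the 1 member of 8 called in Th17 against Th0, and the call was narrow. Its log2 values were 5.94, 5.07, 5.51 and 4.52 on the Th17 arrays, 3.83, 3.61 and 3.55 on the Th2 arrays, and 3.49, 3.60 and 3.33 on the Th0 arrays. All 4 Th17 values lay above all 6 others, while the Th2 and Th0 values overlapped near the median of all genes on each array (3.48 to 3.68). The Th17 values also spread the most, with a mean of 5.26 ± 0.61, against 3.66 ± 0.15 in Th2 and 3.48 ± 0.13 in Th0 (SD, n = 4, 3 and 3). Il23r rose in Th17 over Th0, 3.45-fold in RMA values, a difference of 1.78 ± 0.28 (SE) with a 95% interval of 1.18 to 2.39 and an adjusted p of 0.0473 (limma, two-sided, Benjamini-Hochberg over all genes). It ranked 22nd of 22180 by p, and 0.104% of all genes were called in this comparison. Whether the Th2 and Th0 values lie above background was not tested, and RMA understates folds of weak signals.

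**Figure D1:**
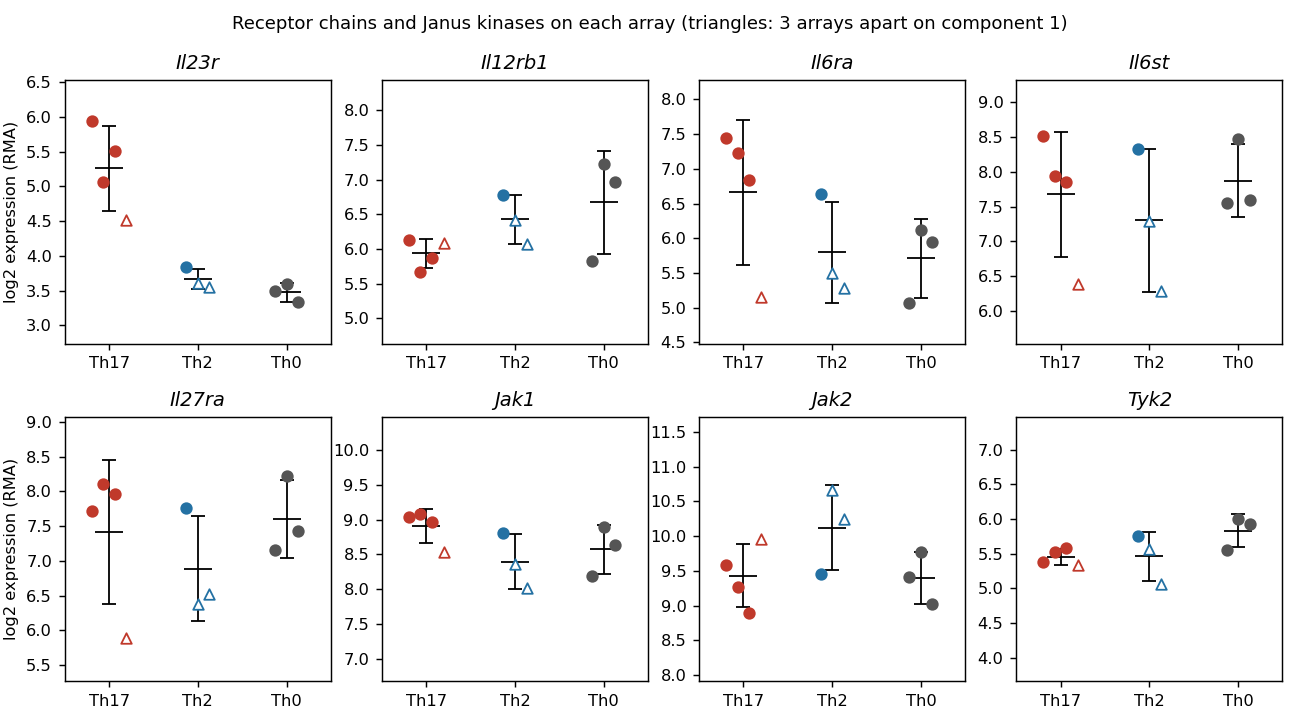
Log2 expression of the 8 members on each array, 1 panel per gene, with the groups Th17, Th2 and Th0 along each horizontal axis. Points are arrays, triangles are the 3 arrays apart on the first principal component, and bars show the group mean ± SD. The 4 Th17 values of Il23r lie above the 6 other values, and the groups overlap in every other panel.

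Against Th2, Il23r was 3.02-fold higher in Th17, a difference of 1.60 ± 0.28 (95% interval 0.99 to 2.20), but the adjusted p of 0.0866 missed the threshold. It passed without Th2 replicate 1 (1.68, adjusted p = 0.0357) and without Th17 replicate 4 (1.84, adjusted p = 0.0116). Th2 differed from Th0 by 0.19 ± 0.30 with an interval of -0.46 to 0.84 (adjusted p = 0.943). The Th17 call over Th0 depended on single arrays. It held without Th17 replicate 4, the lowest Th17 array, with a difference of 2.03 and an adjusted p of 0.00652, and without Th2 replicate 1 with an adjusted p of 0.0423. Without each of the other 8 arrays in turn the difference stayed between 1.56 and 1.85, and the adjusted p lay between 0.0741 and 0.244. Without the 3 basophil-high arrays, which leaves Th17 replicates 1 and 4 and Th0 replicates 2 and 3, the difference was 1.76 ± 0.42. The adjusted p was then 0.945, and 3 genes of all were called.

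Il12rb1, the partner chain of Il23r, was lowest on average in Th17 without passing the test. Its log2 values were 6.13, 5.67, 5.87 and 6.08 on the Th17 arrays, 6.78, 6.42 and 6.08 on the Th2 arrays, and 5.83, 7.22 and 6.96 on the Th0 arrays. A pair of Th0 arrays lay above every Th17 and Th2 array, while Th0 replicate 1 lay within the Th17 range. The difference of Th17 from Th0 was -0.73 ± 0.30 with an interval of -1.40 to -0.07, an unadjusted p of 0.0336 and an adjusted p of 0.918. Without Th0 replicate 1, the array highest in basophil markers, it was -1.15 with an adjusted p of 0.240. Without Th0 replicate 2 it was -0.46 and without Th0 replicate 3 it was -0.59, and without the 3 basophil-high arrays it was -0.99. Th2 differed from Th0 by -0.24 ± 0.32 and Th17 from Th2 by -0.49 ± 0.30 (adjusted p = 0.927 and 0.908). The 2 chains of the IL-23 receptor thus had differences of opposite sign in Th17 against Th0, and only that of Il23r passed the test.

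Il12rb2 encodes the chain that pairs with IL-12Rβ1 in the IL-12 receptor, and it is a direct neighbour of Il23r on chromosome 6 in RefSeq's order of protein-coding genes. Its log2 values were 7.10, 8.06, 8.24 and 5.26 on the Th17 arrays, 6.07, 5.42 and 5.89 on the Th2 arrays, and 7.91, 8.48 and 7.61 on the Th0 arrays. The Th2 values all lay below the Th0 values, by -2.21 ± 0.63, with an adjusted p of 0.767. Th17 replicate 4 lay below every Th2 array and the other 3 Th17 arrays above them. Th17 differed from Th0 by -0.83 ± 0.58 (adjusted p = 0.999), by -0.20 without Th17 replicate 4 and by -1.86 without the 3 basophil-high arrays, and was not called in either. No difference of Il12rb2 passed the test, and its contrast with Il23r was not tested.

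Il6ra, the chain that captures IL-6, had 3 of its 4 Th17 values above all other arrays. They were 7.44, 7.23 and 6.83 on Th17 replicates 1 to 3 and 5.15 on Th17 replicate 4, against 6.63, 5.49 and 5.28 on the Th2 arrays and 5.06, 6.12 and 5.94 on the Th0 arrays. Th17 replicate 4 lay below every array except Th0 replicate 1, so the groups overlapped. The difference of Th17 from Th0 was 0.95 ± 0.53, with an interval of -0.20 to 2.11 and an adjusted p of 0.999. It was 1.46 without Th17 replicate 4 (adjusted p = 0.457), and 1.46 ± 0.28 without the 3 arrays apart on the first component (adjusted p = 0.127). Without the 3 basophil-high arrays it was 0.26 ± 0.72. Against Th2 the difference was 0.86 ± 0.53 (adjusted p = 0.908), and Th2 differed from Th0 by 0.09 ± 0.56.

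Il6st and Il27ra, the chains that join in the IL-27 receptor, showed no difference beyond the spread of their arrays in any of the 3 comparisons. The log2 values of Il6st were 8.52, 7.94, 7.85 and 6.39 on the Th17 arrays, 8.33, 7.29 and 6.28 on the Th2 arrays, and 7.55, 8.48 and 7.60 on the Th0 arrays. Those of Il27ra were 7.72, 8.10, 7.97 and 5.89 on the Th17 arrays, 7.75, 6.37 and 6.53 on the Th2 arrays, and 7.15, 8.23 and 7.43 on the Th0 arrays. For both genes the lowest 3 of the 10 values were those of Th17 replicate 4 and Th2 replicates 2 and 3, the arrays apart on the first component. The Th17 difference from Th0 was -0.20 ± 0.53 for Il6st (interval -1.38 to 0.98) and -0.18 ± 0.53 for Il27ra (interval -1.34 to 0.98). Without the 3 arrays apart both turned positive, at 0.23 and 0.33, and without the 3 basophil-high arrays they were -0.58 and -1.02. None of these passed the test. Th2 differed from Th0 by -0.57 ± 0.57 and -0.72 ± 0.56 for Il6st and Il27ra in turn, and these too turned positive without those arrays, at 0.46 and 0.15, where 1 Th2 array was left. The Th17 intervals, which are not adjusted for the number of genes, reach about a log2 unit on either side of 0. A call needed an adjusted p, so differences of that size and larger ones could have been missed.

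**Figure D2:**
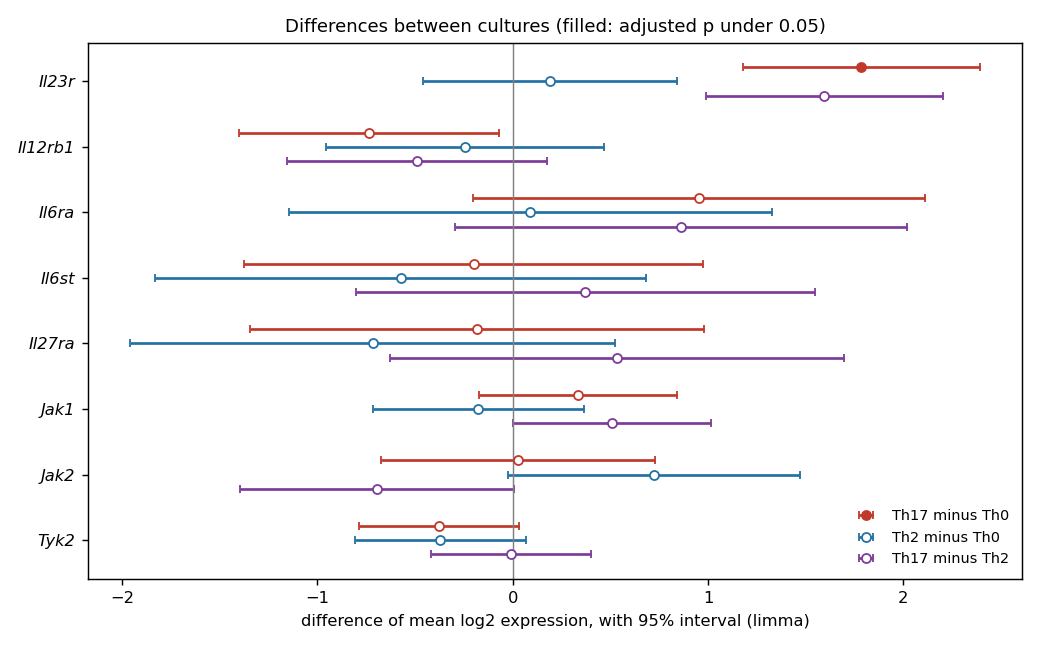
Differences of mean log2 value between groups for the 8 members in each of the 3 comparisons, with 95% intervals of the limma fit. Filled points have an adjusted p under 0.05, and the 1 filled point is Il23r in Th17 minus Th0, at 1.78.

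Among the kinases no comparison passed the test. Jak1, which serves gp130 and many other receptors, had log2 values of 9.03, 9.08, 8.97 and 8.54 on the Th17 arrays, 8.80, 8.36 and 8.02 on the Th2 arrays, and 8.19, 8.90 and 8.63 on the Th0 arrays. The highest 3 values were those of Th17 replicates 1 to 3. Th17 differed from Th0 by 0.33 ± 0.23 (interval -0.17 to 0.84) and from Th2 by 0.51 ± 0.23 with an unadjusted p of 0.0484 and an adjusted p of 0.793. The difference from Th0 was 0.14 without Th0 replicate 1 and 0.023 without the 3 basophil-high arrays. That from Th2 was 0.22 without the 3 arrays apart on the first component.

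Jak2, which is bound by IL-23R and also serves gp130, had its highest mean in Th2. Its log2 values were 9.59, 9.27, 8.89 and 9.96 on the Th17 arrays, 9.46, 10.67 and 10.24 on the Th2 arrays, and 9.41, 9.77 and 9.02 on the Th0 arrays. The highest 3 were again those of the 3 arrays apart on the first component, here in the direction opposite to Il6st and Il27ra. Th2 differed from Th0 by 0.72 ± 0.34 (interval -0.03 to 1.47, adjusted p = 0.793), and Th17 from Th2 by -0.70 ± 0.32 (adjusted p = 0.803). Without the 3 arrays apart, which leaves 1 Th2 array, these were 0.058 and -0.21, and without Th2 replicate 1 they were 1.06 and -1.03 (adjusted p = 0.121 and 0.136). Between Th17 and Th0 the difference was 0.03 ± 0.32, and 0.38 without the 3 basophil-high arrays.

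Tyk2, the kinase bound by IL-12Rβ1, had the narrowest range over the 10 arrays among the members. Its log2 values were 5.37, 5.53, 5.58 and 5.34 on the Th17 arrays, 5.75, 5.57 and 5.06 on the Th2 arrays, and 5.56, 6.005 and 5.94 on the Th0 arrays. A pair of Th0 arrays had the highest values, and the third lay within the range of Th17. Differences from Th0 were -0.38 ± 0.19 in Th17 (interval -0.79 to 0.03) and -0.37 ± 0.20 in Th2 (interval -0.81 to 0.07), with adjusted p-values of 0.989 and 0.806. Without the 3 basophil-high arrays they were -0.62 and -0.51, and the Th2 difference was -0.080 without the 3 arrays apart.

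**Figure D3:**
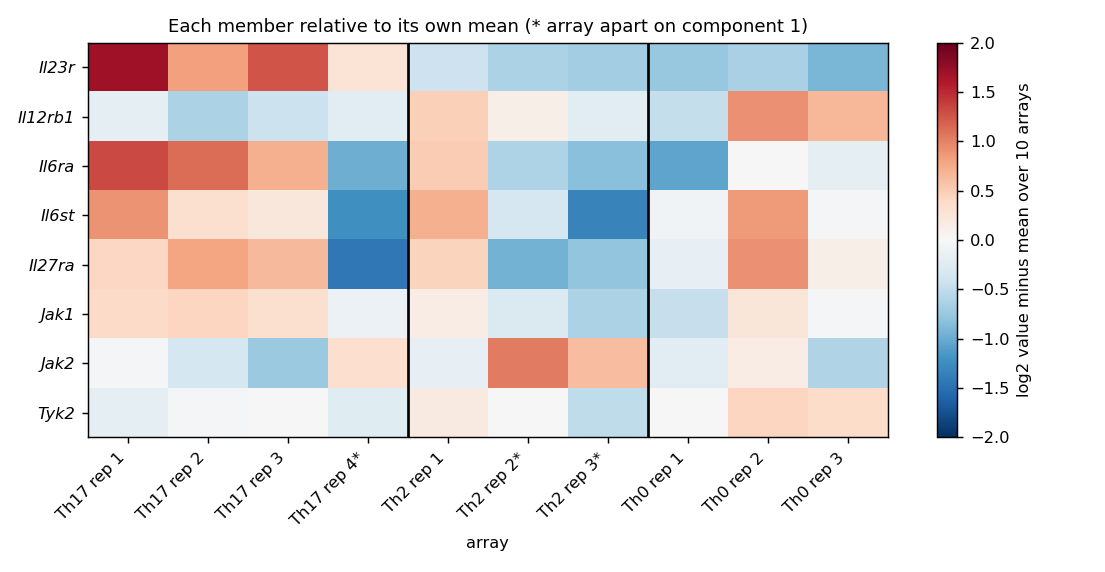
Heat map of each member's log2 value minus its own mean over the 10 arrays, with members in rows and arrays in columns ordered Th17, Th2, Th0. An asterisk marks the 3 arrays apart on the first principal component, where Il6st and Il27ra are lowest and Jak2 is highest.

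Counted over the group of 8, 1 member rose and 0 fell in Th17 against Th0, where 0.0947% of all genes rose and 0.00902% fell. Members with an unadjusted p under 0.05 were 2 of 8 there, Il23r and Il12rb1, where 5.17% of all genes had such a p, and 1 of 8 had groups that did not overlap, against 7.57% of all genes. In Th17 against Th2, 0 members and 0.0766% of all genes were called by limma, 2 members had an unadjusted p under 0.05 (Il23r and Jak1, 6.25% of all genes) and 1 did not overlap (5.6% of all genes). In Th2 against Th0, 0 members and 0% of all genes were called, 0 members and 6.34% of all genes had an unadjusted p under 0.05, and 0 members and 8.43% of all genes did not overlap. Without Th2 replicate 1, which keeps only the Th2 arrays apart on the first component, 431 genes were called in Th2 against Th0, and 0 members. The median difference of the members was -0.08 in Th17 against Th0, -0.21 in Th2 against Th0 and 0.44 in Th17 against Th2, where the medians of all genes were -0.02, -0.01 and -0.01. These medians of 8 genes rested on single arrays. With 1 array left out in turn they ran from -0.22 (without Th0 replicate 3) to 0.28 (without Th17 replicate 4), from -0.44 (without Th0 replicate 1) to 0.0090 (without Th0 replicate 2) and from 0.093 (without Th2 replicate 3) to 0.80 (without Th2 replicate 1) in the same order. The comparisons share arrays, so their values are not independent of each other.

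The ligands of the receptor family did not pass the test in any comparison (0 of 11 measured, median -0.02 in Th17 against Th0). Il6 was high on 3 of 10 arrays, with log2 values of 3.93, 7.93, 6.47 and 3.42 on the Th17 arrays, 3.87, 3.66 and 4.01 on the Th2 arrays, and 7.49, 3.58 and 3.83 on the Th0 arrays. The 3 high arrays, Th17 replicates 2 and 3 and Th0 replicate 1, were the basophil-high arrays, and without them the difference of Th17 from Th0 was -0.03 ± 0.25, against 0.47 ± 1.12 with them. Il12a, the p35 subunit of IL-12, had log2 values of 2.92, 3.08, 2.64 and 2.96 on the Th17 arrays, 3.44, 3.11 and 3.05 on the Th2 arrays, and 4.13, 3.62 and 3.62 on the Th0 arrays. Every Th0 value was above all 7 others, but the differences of -0.89 ± 0.18 in Th17 and -0.59 in Th2 did not pass the test, with an adjusted p of 0.166 for Th17. The Th17 and Th2 values of Il12a lay below the median of all genes on each array (3.48 to 3.68), and a pair of Th0 values lay near it. Whether they lie above background was not tested. Osm, which encodes the gp130 ligand oncostatin M, differed by 0.23 in Th17 against Th0.

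Other receptor chains of the family gave 0 calls of 7 measured, with medians of -0.04 in Th17 and -0.15 in Th2, each against Th0. A filter at a mean of 4 left only Il12rb2 of the 7. Besides Il12rb2, the largest differences in Th17 against Th0 were -0.18 for Cntfr, the CNTF receptor, and 0.09 for Lepr, the leptin receptor. That of Cntfr ran from -0.39 without Th0 replicate 2 to -0.018 without Th0 replicate 3. The remaining kinase and STAT genes also gave 0 calls of 6. Stat4, which carries the IL-12 signal, had log2 values of 7.41, 7.76, 7.82 and 7.29 on the Th17 arrays, 7.96, 6.54 and 6.41 on the Th2 arrays, and 8.54, 9.23 and 7.86 on the Th0 arrays. No Th17 value reached a Th0 value, at a difference of -0.97 ± 0.39 with an adjusted p of 0.912. Th2 differed from Th0 by -1.58 ± 0.42 (adjusted p = 0.767), and by -2.07 without Th2 replicate 1, where the adjusted p was 0.0230. That fit keeps only Th2 replicates 2 and 3, which were apart on the first component. Th2 replicate 1, at 7.96, lay within the Th0 range. Stat3, chosen after its values were seen because it is the factor shared by IL-6 and IL-23, differed by 0.06 in Th17 and -0.78 in Th2 against Th0, without a call. Its Th2 values were 7.95, 7.19 and 6.43, beside a Th0 mean of 7.97. Stat5a and Stat5b, which act downstream of IL-2, differed by 0.72 and 0.34 in Th17.

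Among 20 measured inhibitors and sheddases none was called by limma, and their median differences were -0.0027 in Th17 and -0.18 in Th2, each against Th0. Socs3, which blocks signalling at gp130, had log2 values of 8.25, 8.14, 8.66 and 7.75 on the Th17 arrays, 7.14, 5.81 and 5.62 on the Th2 arrays, and 7.21, 7.76 and 6.79 on the Th0 arrays. Its 4 Th17 values lay above the 3 Th2 values, by 2.01 ± 0.37 with an adjusted p of 0.102. Against Th0 the difference was 0.94 ± 0.37 in Th17 (adjusted p = 0.896) and -1.07 ± 0.39 in Th2 (adjusted p = 0.767). Without Th2 replicate 1 the Th2 difference was -1.54 and passed the test (adjusted p = 0.0359). That fit keeps only Th2 replicates 2 and 3, which were apart on the first component. Th2 replicate 1, at 7.14, lay within the Th0 range. Pias4, a SUMO ligase that binds STAT proteins, and Ptprc, the phosphatase CD45, differed by 0.44 and -0.42 in Th17.

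Genes that STAT3 is known to drive or that regulate Th17 cells held the only calls of these pathway lists. Of 18 measured, 3 rose and 0 fell in Th17 against Th0, where 0.104% of all genes were called, and the list's median was 0.59 beside -0.02 for all genes. Il17f, a Th17 cytokine, had log2 values of 10.94, 10.21, 9.55 and 10.34 on the Th17 arrays, 5.48, 6.53 and 6.66 on the Th2 arrays, and 5.59, 5.68 and 4.98 on the Th0 arrays. It rose by 4.85 ± 0.35 over Th0 (adjusted p = 0.000676) and by 4.04 over Th2 (adjusted p = 0.00321), and no array of another group came near the Th17 range. It was called over Th0 without each of the 10 arrays in turn, at 4.62 to 5.08.

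Ahr, a ligand-activated transcription factor that Th17 cells express, had log2 values of 7.62, 5.97, 6.62 and 6.14 on the Th17 arrays, 4.08, 4.48 and 4.08 on the Th2 arrays, and 4.66, 3.75 and 4.02 on the Th0 arrays, and rose by 2.45 ± 0.36 over Th0 (adjusted p = 0.0382). Il1r1, a receptor for IL-1, had log2 values of 7.89, 6.98, 6.72 and 6.43 on the Th17 arrays, 3.76, 4.74 and 4.74 on the Th2 arrays, and 4.94, 3.81 and 3.30 on the Th0 arrays, and rose by 2.99 ± 0.43 (adjusted p = 0.0382). Both calls were as narrow as that of Il23r. Ahr was called only without Th2 replicate 1 or Th17 replicate 1, and Il1r1 only without Th0 replicate 1 or Th2 replicate 1, when single arrays were left out. Without the 3 basophil-high arrays the differences were 3.00 for Ahr and 3.61 for Il1r1 with adjusted p-values of 0.284 and 0.278, and without the 3 arrays apart on the first component Ahr missed the threshold (2.60, adjusted p = 0.0512) while Il1r1 and Il17f were called.

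Il17a and Il21, a pair of further Th17 cytokines, differed by 4.22 and 3.00 in Th17 against Th0 with adjusted p-values of 0.180 and 0.236, and Il21 passed the test without Th0 replicate 2 (3.98, adjusted p = 0.0162). In Th2 against Th0 none of the 18 was called, the median was 0.33, and the largest difference was -1.58 for Bcl3, an IκB family member (adjusted p = 0.767). The Th2 values of Bcl3 were 6.89, 4.98 and 4.96, beside a Th0 mean of 7.19. The lower pair came from the arrays apart on the first component.

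**Figure D4:**
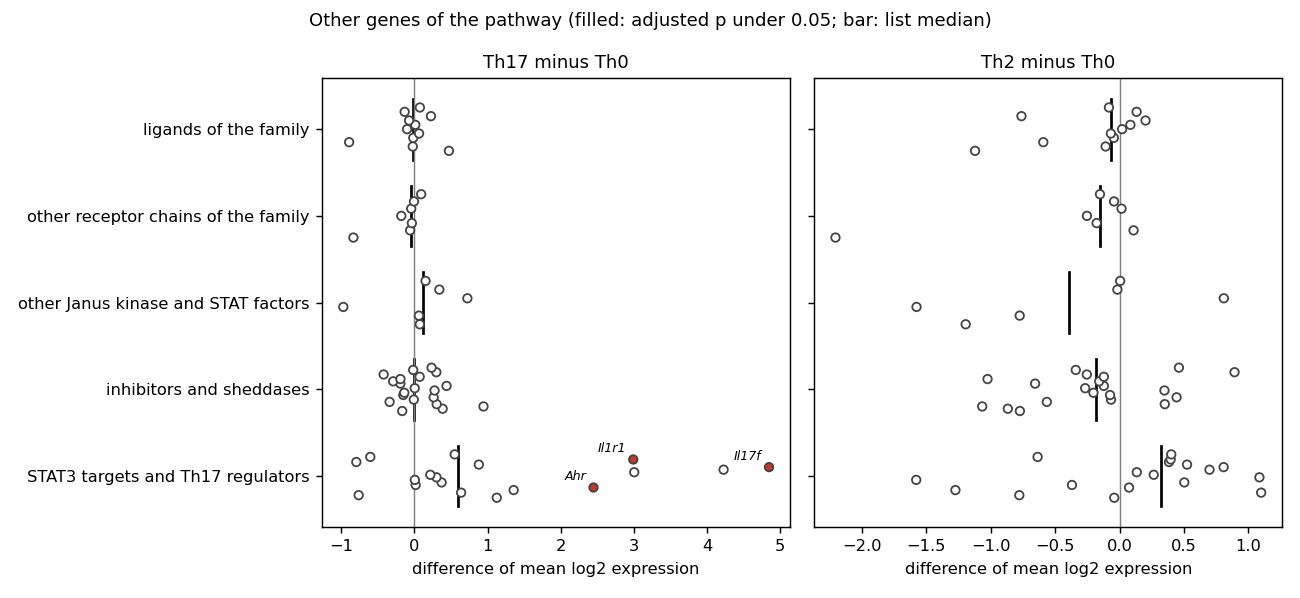
Differences of mean log2 value for the measured genes of the 5 pathway lists described, Th17 minus Th0 and Th2 minus Th0, with 1 point per gene. Bars are list medians and filled points have an adjusted p under 0.05. The 3 filled points are Ahr, Il17f and Il1r1, all in Th17 minus Th0.

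The genes whose values ran most like each member's were listed by Pearson's r over the 10 arrays among 6301 genes that spanned at least 1 log2 unit. For Il23r these were Cdc14b (r = 0.968), Aqp3 (0.959), Acpp (0.959), Tnfrsf25 (0.957), Ust (0.956), Ahr (0.954), Neurl3 (0.944) and Cysltr1 (0.941). Cdc14b is a phosphatase of the cell cycle, Aqp3 a water and glycerol channel, and Tnfrsf25 the death receptor for TL1A. Without the 3 arrays apart on the first component the 8 coefficients lay between 0.956 and 0.979. Il23r differs between groups, so any gene with a Th17 level unlike the others shares part of its pattern.

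For Il6ra the most alike were Ski (0.969), a repressor of TGFβ signalling, Pik3c2a (0.954) and Il17ra (0.953), a chain of the IL-17 receptor. For Il12rb1 they were Cenpi (0.951), a centromere protein, Lgals7 (0.912) and Wdr78 (0.900). Il6st ran most like Vps16 (0.963), Cirbp (0.954) and Tlr1 (0.951), and Il27ra most like Dennd1c (0.988), Arhgef1 (0.984) and Ppm1h (0.977). Among the kinases, Jak1 ran most like Trpc4ap (0.987), Pik3r5 (0.979) and Smap2 (0.978), Jak2 most like Trib1 (0.953), Sik3 (0.948) and Errfi1 (0.947), and Tyk2 most like Sipa1l1 (0.953), Zbtb7b (0.940) and Gapdhs (0.926). These coefficients share the arrays and their common components and carry no test.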

How the data were processed

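The deposited values are log2 signals that the authors computed by RMA, with Affymetrix Expression Console 1.3.0.187, per the submitters' processing notes. RMA corrects background, quantile-normalizes the arrays and summarises probes. Quantile normalization hides changes in total RNA per cell, and RMA compresses differences between weak signals. RNA was prepared with a miRNeasy kit and DNase, amplified and biotin-labelled, per the labels' protocols. Genome build and annotation version: not given in the sources used here.

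Values of the 41345 probe sets lay between 1.49 and 13.8. A platform table paired 23521 of them with 1 gene symbol and 1814 with several, and 16010 were unnamed. Probe sets with 1 symbol were used, and the one with the highest mean stood for each of the 1082 genes with several, which left 22180 genes without a filter on low values. Symbols were updated through the RefSeq gene table (GRCm38.p6), and 0 changed. Groups came from the titles. 1 array is replicate 3 of Th2 by its title but 4 by its description, and 3 was used.

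Group means over all 10 arrays were fitted with limma 3.58.1 (lmFit, eBayes) in R 4.3.3, with 7 residual degrees of freedom. Two-sided p-values were adjusted over all genes of a comparison (Benjamini-Hochberg), and calls were made at an adjusted p under 0.05. The script was tested on simulated data. The number of arrays limits the precision. Alternatives were a replicate block, only the 2 groups compared, renewed quantile normalization, a filter at a mean of 4, the mean of all probe sets of a gene, trend and robust priors, array weights and each array left out. 2 more, leaving out 3 arrays each, were added after seeing the data.

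The members and lists were chosen with earlier results of these data known. From each pathway list the text names the called genes, the 3 with the largest difference in Th17 against Th0 and the 1 with the largest in Th2 against Th0, and for likeness the 3 genes with the highest r (8 for Il23r), with antigen receptor segments, olfactory and vomeronasal receptors, small RNA genes and unnamed gene models left out. 1 pathway list is not reported here.

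By the titles' numbers, same-numbered arrays did not deviate together more than others. The correlations of their deviations from the group means ran from -0.31 to 0.30 over 9 pairs, so the numbers were not taken to pair the samples. For the 24 pairs with different numbers they ran from -0.58 to 0.49. The highest, 0.49, was that of Th2 replicate 3 and Th17 replicate 4. By the description's number of that Th2 array the pair would be same-numbered, so the result depends on which number is used. Deviations cancel within each small group, so this check is weak and cannot exclude a pairing.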

Additional observations from a re-analysis of the deposited data

Results flagged for a closer look

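Of 44 values examined in the 4 Th17 arrays, 4 had 1 array far from the other 3 by Dixon's test at its 95% critical value, where chance gives about 1 in 20. Bcl3, an IκB family member, was at 5.87 on Th17 replicate 4 and at 7.54 to 7.71 on the other Th17 arrays. The mean of the T cell identity genes was 8.68 on that array and 9.17 to 9.25 on the others. The mean of naive and resting T cell genes was 7.09 there and 8.12 to 8.25 on the others. Th17 replicate 4 also had the lowest Th17 values of Il23r, Il6ra, Il6st, Il27ra, Jak1 and Tyk2, and its part in their differences was measured by leaving it out. Myeloid and neutrophil genes averaged 4.14 on Th17 replicate 1 and 3.15 to 3.23 on the other Th17 arrays. On that array S100a8, a neutrophil protein gene, S100a9, Lyz2 and Cd68 were at 7.16, 6.52, 5.43 and 5.78, each time the highest of the 10 arrays. The other measured genes of that list were not highest there. Among them Ly6g and Cd14 were at 2.85 and 2.76 on that array, and Csf3r, the neutrophils' growth factor receptor, was at 2.78 to 3.06 on all 10 arrays. Which cells these signals came from was not tested.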

How the results depend on the processing

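Of 456 differences of members under 19 settings, 406 kept their direction and their side of the threshold, 35 reversed, 11 fell below it and 4 passed it. The cause of a change was not tested. With fewer arrays the spread is estimated from less, and a group left with 1 array is assumed to vary like the others.

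The Il23r call in Th17 against Th0 (1.78) was lost with only the 2 groups compared (1.78, adjusted p = 0.0830), after renewed quantile normalization (1.74, 0.0594) and without the 3 basophil-high arrays (1.76, 0.945), which left 0 members called each time. The call held with the replicate block (2.03, 0.0330), array weights (1.93, 0.00966) and the filter at a mean of 4 (0.0321). It also held with the mean of all probe sets (0.0460) and with trend and robust priors (0.0318). Without the 3 arrays apart on the first component, which leaves 1 Th2 array, the difference was 2.03. Against Th2 (1.60) Il23r was called with the replicate block (1.84, 0.0375) and with array weights (1.75, 0.0105), which gave 1 member called each. In the block fit, which used the titles' numbers, Th17 replicate 4 is alone in its block and drops out of the differences. By the description's number it would share a block with Th2 replicate 3, and no fit was run with that number.

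All genes called in Th17 against Th0 (23) were 8 with the replicate block, 60 with array weights, 46 without the 3 arrays apart on the first component and 3 without the basophil-high arrays. In Th17 against Th2 (17) they were 11 with the block, 27 with the filter, 330 with array weights and 6 without the basophil-high arrays. In Th2 against Th0 (0) they were 2 without the 3 arrays apart.

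With each array left out in turn, the members called ranged over 0 to 1 in Th17 against Th0, 0 to 1 in Th17 against Th2 and 0 to 0 in Th2 against Th0, and all genes called over 2 to 36, 3 to 298 and 0 to 431, with each highest count without Th2 replicate 1. The Il23r difference ranged over 1.56 to 2.03, 1.37 to 1.84 and 0.10 to 0.25 in the same order.

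Differences that reversed were all uncalled. In Th17 against Th0 the values with the replicate block and without the 3 arrays apart were both 0.23 for Il6st, 0.33 for Il27ra, -0.15 for Jak2 and -0.026 for Lepr. With array weights they were 0.015 for Il6st, 0.063 for Il27ra and -0.013 for Jak2, and Jak2 was -0.0051 after renewed quantile normalization. Without the basophil-high arrays Il6 was -0.033 and Osm -0.038. In Th2 against Th0 they were, without the 3 arrays apart, 0.11 for Il12rb1, 0.46 for Il6st, 0.15 for Il27ra and 0.23 for Jak1. There Il6ra was -0.21 with array weights and -0.23 without the basophil-high arrays, where Il6 was 0.14. In Th17 against Th2, Il6st was -0.23 without the 3 arrays apart, Il27ra was -0.082 without the basophil-high arrays, and Tyk2 was 0.032 with the block.

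Among members and pathway genes named by rule, leave-one-out ranges that crossed 0 in Th17 against Th0 were -0.48 to 0.23 for Il6st, -0.41 to 0.33 for Il27ra, -0.16 to 0.21 for Jak2, -0.36 to 1.73 for Il6, -0.065 to 0.41 for Osm and -0.026 to 0.19 for Lepr. In Th2 against Th0 they were -0.66 to 0.031 for Il12rb1, -0.32 to 0.35 for Il6ra, -0.38 to 0.011 for Jak1 and -1.82 to 0.14 for Il6. In Th17 against Th2 they were -0.14 to 0.89 for Il6st and -0.21 to 0.14 for Tyk2. List medians crossed 0 as well, for the members (given above), in Th17 against Th0 for the ligands (-0.056 to 0.0037) and inhibitors (-0.025 to 0.10), in Th2 against Th0 for the inhibitors (-0.36 to 0.069) and STAT3 targets (-0.0067 to 0.52), and in Th17 against Th2 for the ligands (-0.038 to 0.087) and inhibitors (-0.086 to 0.34). Without the 3 arrays apart the members' median was 0.28, 0.19 and -0.015 in Th17 against Th0, Th2 against Th0 and Th17 against Th2.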
